A study of Mus musculus with 48 samples.

Results

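The ileum and the duodenum, the last and the first stretch of the small intestine, were compared in C57Bl/6J mice at day 4 after birth. The comparison rested on 6 of the 48 samples of the series, 3 labelled ileum and 3 labelled duodenum, chosen by region and age alone. Each sample was total RNA from a 2 cm piece of the whole thickness of the bowel, taken just below the pylorus for the duodenum and just above the caecum for the ileum. At this age the pups were still with the dam, where they stayed until day 21. The labels state that both sexes were used and call the housing standard germ-free. Samples of each region are numbered 1 to 3. The labels do not say whether these were separate animals or whether equal numbers in both regions share one. P-values measure the spread between samples within groups, estimated over 42 samples of the series, and part of it may be technical.

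In the suckling mouse the small intestine handles milk rather than solid food. The distal enterocytes of that age take up whole proteins by endocytosis and break them down in large lysosomes, through a receptor complex built of cubilin, amnionless and the adaptor Dab2. The duodenum meets gastric acid, bile and pancreatic juice, and the transcription factors Pdx1 and Gata4 mark it. The ileum recovers bile acids, which enter through the transporter Slc10a2, bind the cytosolic carrier Fabp6, leave through Slc51a and Slc51b, and act on the nuclear receptor Nr1h4 (FXR) to induce the hormone Fgf15.

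The 6 libraries held 23825798 to 44350028 estimated counts, and 23483 to 27063 genes had a count. Mitochondrial genes took 23.4% to 26.5% of the counts in the duodenum libraries and 13.1% to 17.6% in the ileum libraries, without overlap. The libraries with the sample number 3 in the duodenum and 2 in the ileum stood apart from their groups. Their rank correlation with each other over genes was 0.944, while the former reached 0.910 and 0.924 with the other duodenum libraries and the latter 0.926 and 0.954 with the other ileum libraries. Both held less of the longest transcripts: in genes with a median transcript length over 6 kb, the median gene of duodenum number 3 lay at -0.68 (log2) against the mean of the other duodenum libraries, and that of ileum number 2 at -0.41. In genes of up to 1 kb the same medians were 0.31 and 0.30. Counts of calls are therefore also given without both libraries. The regional difference itself also ran with length. Its median log2, ileum minus duodenum, was -0.24 in genes of up to 1 kb and 0.08 in those over 6 kb. Without both libraries these medians were -0.23 and 0.09. The part of length in the regional calls was not tested. Correlations were also taken with the groups of days 2, 4 and 8. Both number 1 libraries correlated best with the day 2 libraries of their own region (mean 0.979 in the duodenum and 0.989 in the ileum). Duodenum number 2 did so with those of day 8 (0.988). Duodenum number 3 reached 0.922 with day 8 and 0.917 with day 4, and ileum number 3 0.977 with day 2 and 0.965 with day 4. Only ileum number 2 correlated best with its own group (0.940).

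**Figure D1:**
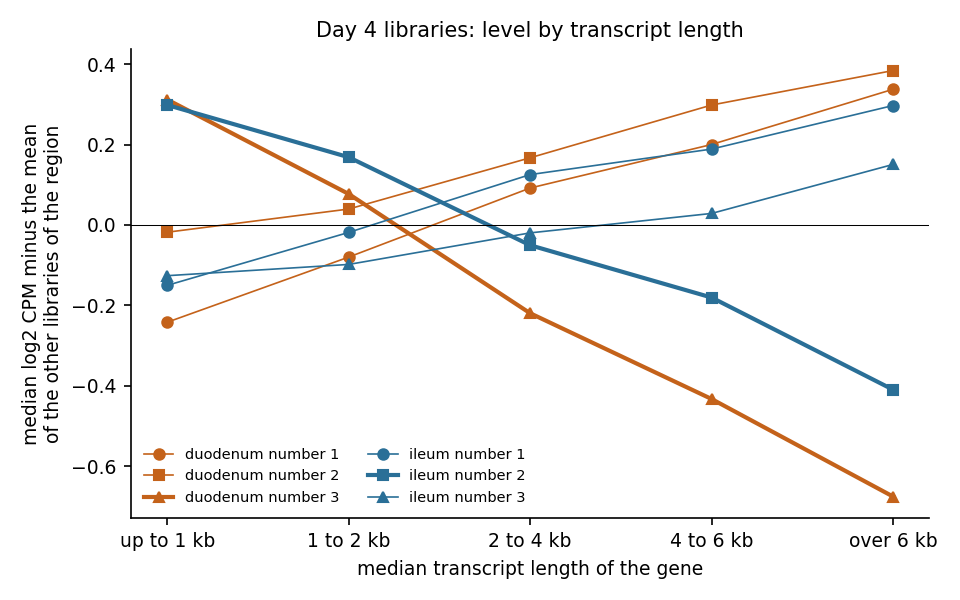
Median log2 level of each day 4 library minus the mean of the other 2 libraries of its region (vertical axis), in 5 classes of median transcript length (horizontal axis), over 12387 genes. Duodenum number 3 and ileum number 2, drawn as thick lines, ran from 0.31 and 0.30 in the shortest class to -0.68 and -0.41 in the longest.

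Of 20788 genes tested, 5651 (27.2%) differed between ileum and duodenum at an adjusted p under 0.05 in edgeR's quasi-likelihood test. Of these, 2512 (12.1% of the genes tested) were higher in the ileum, the other 3139 (15.1%) in the duodenum. Differences over 2-fold were more often towards the ileum, with 1675 genes (8.06%) against 1026 (4.94%). The median log2 difference over all genes tested was -0.05. In 4485 genes (21.6%) the 3 ileum and 3 duodenum libraries did not overlap, and 3293 of these were called. Without duodenum number 3 and ileum number 2, 5855 genes (26.9%) were called, 11.6% of those tested towards the ileum and 15.3% towards the duodenum, and 4778 of them were called in the full comparison too. The count rests on a spread estimated over 42 samples of the series: from the 6 day 4 libraries alone it was 354, of which 73.2% were higher in the ileum against 44.5% in the full fit. Leaving out ileum number 1 lowered it to 3031, of which 54.4% were higher in the ileum.

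**Figure D2:**
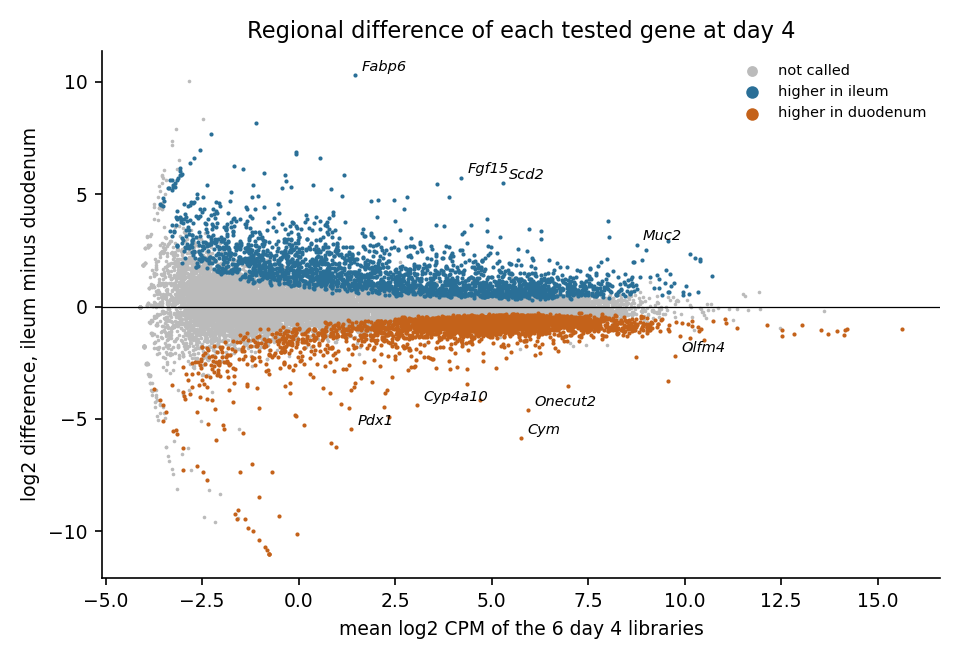
Log2 difference of each of the 20788 genes tested, ileum minus duodenum (vertical axis), against its mean log2 CPM over the 6 day 4 libraries (horizontal axis); coloured points passed an adjusted p of 0.05. Among the labelled genes, Fabp6 (10.31) is the highest and Cym (-5.85) the lowest.

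Genes of bile acid recovery were higher in the ileum, from the carrier that holds bile acids in the cell to the hormone they induce. Levels are given as CPM (counts of a gene per megacount in its library, scaled by TMM), in the order of the sample numbers, and differences as log2 of ileum over duodenum. Fabp6, at chr11:43596049-43601540 on the minus strand (GRCm38), was at 15.7, 198 and 135 CPM in the ileum and at 0.254, 0 and 0 in the duodenum (log2 difference 10.31 ± 1.31 SE, adjusted p = 3.58e-06). Fgf15, the enterocyte hormone that restrains bile acid synthesis in the liver, was at 164, 170.5 and 187 CPM in the ileum, against 6.55, 0.344 and 2.91 in the duodenum (log2 difference 5.73 ± 0.84 SE, adjusted p = 1.64e-05). The 3 ileum libraries were close to each other for Fgf15, whereas ileum number 1 was the lowest by far for Fabp6, and neither gene overlapped between regions. Slc10a2, the transporter of bile acids at the brush border, was low at 0.939, 2.39 and 3.10 CPM in the ileum, yet above the 0.203, 0.147 and 0.485 of the duodenum (log2 difference 3.01 ± 0.66 SE, adjusted p = 0.0013).

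At the other face of the cell, the export subunit Slc51a was at 203, 290.0 and 212 CPM in the ileum, against 101, 68.0 and 116 in the duodenum (log2 difference 1.31 ± 0.21 SE, adjusted p = 3.73e-05). Its partner Slc51b was at 35.4, 67.9 and 41.5 CPM in the ileum against 33.2, 23.7 and 38.5 in the duodenum (log2 difference 0.60 ± 0.20 SE, adjusted p = 0.0215), with overlap between the regions. Its call was lost on leaving out some libraries (adjusted p 0.159 without duodenum number 2, 0.299 without ileum number 2 and 0.088 without duodenum number 3 and ileum number 2, from 0.00887 to 0.299 over 14 alternatives). The bile acid receptor Nr1h4 was at 183, 172 and 160.1 CPM in the ileum, against 99.2, 82.2 and 85.9 in the duodenum (log2 difference 0.95 ± 0.20 SE, adjusted p = 0.000981). Among exporters of conjugated anions the directions were opposite. Abcc2, which exports across the brush border, was higher in the ileum (log2 difference 2.53 ± 0.35 SE, adjusted p = 3.33e-06). Abcc3, which exports to the blood, was higher in the duodenum (log2 difference -2.44 ± 0.31 SE, adjusted p = 9.12e-07). Of the 11 genes of the list that passed the filter on low counts, 7 were called higher in the ileum and 2 in the duodenum, beside 12.1% and 15.1% of all genes tested. Without duodenum number 3 and ileum number 2 these were 6 and 2. The second of the 2 was the bile salt exporter Abcb11 (log2 difference -1.35 ± 0.42 SE, adjusted p = 0.0164), named here after its values were seen.

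A promoter sequence is shown for the pair of genes in this list whose 250 bases before the start held an inverted repeat, the half-site GGTNA and 1 base later its reverse complement TNACC. This is the form of site that the bile acid receptor is known to bind. The motif reads alike on both strands. It occurred in 72 of the 32851 windows of this length in the table, or 0.219%, and in 2 of the 10 list genes that had a window; those 2 are Fabp6 and Slc51b. The sequences are from RefSeq (GRCm38.p6), run 5′ to 3′ along the gene, and carry the motif in capitals. The Fabp6 window is chr11:43601563-43601812 and the Slc51b window chr9:65422774-65423023, both on the minus strand. Counted back from the start, the matches begin at bases -221 and -141 of Fabp6 and at -186 of Slc51b. A match is a description of the letters and shows no binding.
Fabp6: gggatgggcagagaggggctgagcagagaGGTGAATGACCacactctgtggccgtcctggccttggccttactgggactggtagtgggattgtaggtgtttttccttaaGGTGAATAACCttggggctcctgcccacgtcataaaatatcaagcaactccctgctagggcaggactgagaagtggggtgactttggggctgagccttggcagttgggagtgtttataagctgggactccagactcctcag
Slc51b: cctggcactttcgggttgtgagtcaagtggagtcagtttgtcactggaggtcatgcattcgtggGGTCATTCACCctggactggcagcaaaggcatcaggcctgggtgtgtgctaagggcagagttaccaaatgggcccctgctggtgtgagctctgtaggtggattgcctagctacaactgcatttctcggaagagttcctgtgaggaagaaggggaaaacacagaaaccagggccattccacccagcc

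**Figure D3:**
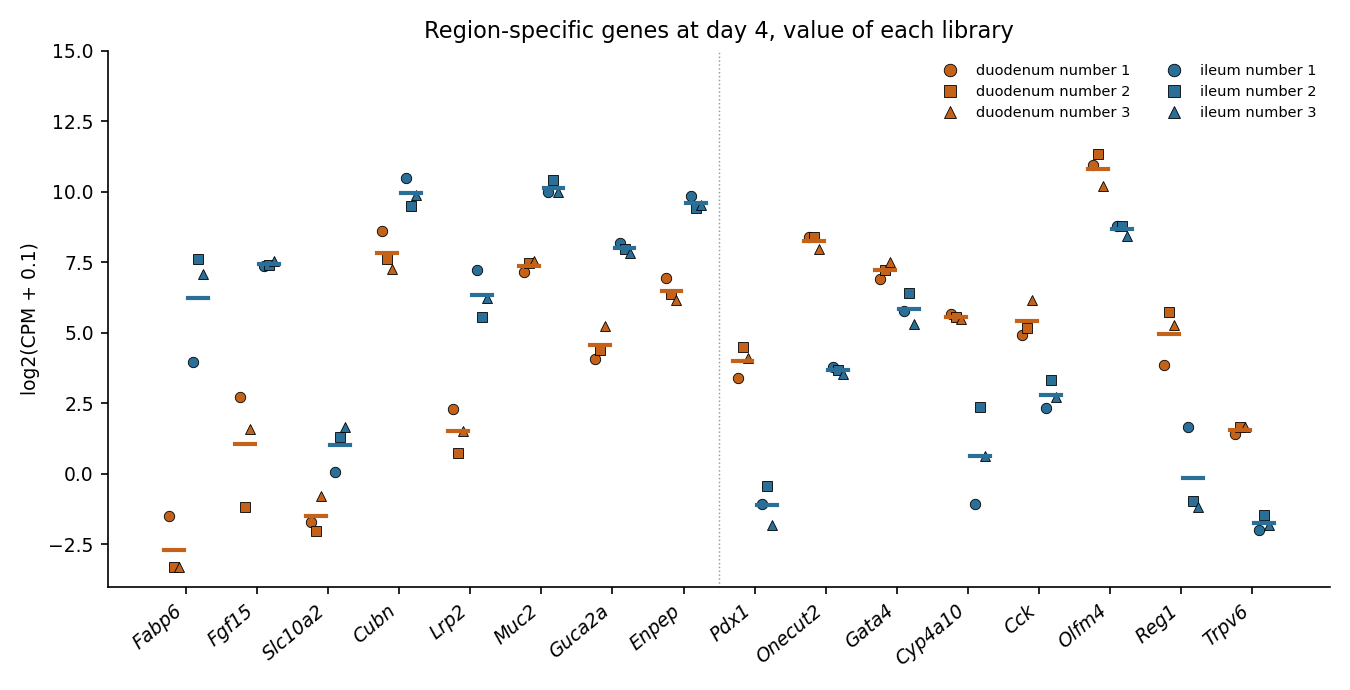
Level of 16 genes in each day 4 library, as log2(CPM + 0.1) (vertical axis), with circles, squares and triangles for the sample numbers 1, 2 and 3 and bars for the mean of each region. The 8 genes on the left were higher in the ileum and the 8 on the right higher in the duodenum, and in none of them do the 2 regions overlap.

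The apparatus for the uptake and breakdown of milk proteins was higher in the ileum in most genes tested. Cubn, which encodes cubilin, was at 1454, 727 and 934 CPM in the ileum, against 388, 196 and 152 in the duodenum (log2 difference 2.08 ± 0.31 SE, adjusted p = 8.65e-06). Its membrane anchor Amn was at 121, 129 and 98.0 CPM in the ileum against 43.4, 29.6 and 59.1 in the duodenum (log2 difference 1.40 ± 0.29 SE, adjusted p = 0.000822). Megalin, encoded by Lrp2, had the largest difference of the list among the genes higher in the ileum, with 148, 46.7 and 74.6 CPM in the ileum, against 4.77, 1.57 and 2.73 in the duodenum (log2 difference 4.89 ± 0.55 SE, adjusted p = 2.01e-07). In these 3 genes ileum number 1 or 2 was highest and the regions did not overlap. For the adaptor Dab2 the levels overlapped, at 708, 189.7 and 341 CPM in the ileum, against 262, 57.4 and 115 in the duodenum (log2 difference 1.51 ± 0.40 SE, adjusted p = 0.00599). That call was lost without some libraries (adjusted p 0.0522 without duodenum number 2 and 0.136 without ileum number 1, from 3.99e-05 to 0.25 over 14 alternatives).

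Lysosomal genes were higher in the ileum too. The protease cathepsin H, Ctsh, was at 235, 222 and 162 CPM in the ileum, against 76.9, 41.8 and 64.4 in the duodenum (log2 difference 1.76 ± 0.19 SE, adjusted p = 5.15e-08). The peptidase Tpp1 was at 467, 276 and 314 CPM in the ileum against 185, 115 and 98.4 in the duodenum (log2 difference 1.41 ± 0.22 SE, adjusted p = 1.93e-05). Gla, the lysosomal alpha-galactosidase, was also higher (log2 difference 1.59 ± 0.21 SE, adjusted p = 1.49e-06). The sialic acid exporter Slc17a5 reached 1332, 597 and 698 CPM in the ileum against 354, 163 and 153 in the duodenum (log2 difference 1.97 ± 0.29 SE, adjusted p = 8.4e-06). The median log2 difference of the list was 1.09 against -0.05 over all genes tested. In all, 28 of 33 genes passed towards the ileum and 1 towards the duodenum, beside 12.1% and 15.1% of all genes tested. The 1 gene, named after its values were seen, was Tmprss15, the enteropeptidase that activates pancreatic trypsinogen and is no part of endocytosis (12.5, 11.6 and 3.97 CPM in the duodenum, against 0.864, 0 and 0 in the ileum). Without the 2 libraries that stood apart, 27 and 1 were called, and from the 6 day 4 libraries alone 6 of the 33 were called. Fcgrt, the receptor that carries milk antibodies across the epithelium, did not pass the test, at 1653, 1468 and 896 CPM in the ileum, against 2173, 1023 and 1553 in the duodenum (log2 difference -0.24 ± 0.28 SE, adjusted p = 0.561).

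Transcription factors that set the regional identity of the gut differed in both directions. Pdx1, the homeobox factor of the duodenum and pancreas, was at 10.4, 22.3 and 16.9 CPM in the duodenum, against 0.376, 0.644 and 0.183 in the ileum (log2 difference -5.45 ± 0.99 SE, adjusted p = 0.000221). Onecut2 was at 336, 334 and 250.3 CPM in the duodenum, against 13.6, 12.8 and 11.5 in the ileum (log2 difference -4.60 ± 0.84 SE, adjusted p = 0.000246). Gata4, which maintains proximal identity of the epithelium, was still at 54.4, 84.1 and 39.8 CPM in the ileum, against 121, 151 and 181 in the duodenum (log2 difference -1.35 ± 0.32 SE, adjusted p = 0.00233). In each of these the 3 duodenum libraries were all above the 3 ileum libraries. Klf4, a zinc finger factor of differentiating epithelium, was in turn higher in the ileum, at 95.6, 66.3 and 67.5 CPM, against 33.2, 27.2 and 35.7 in the duodenum (log2 difference 1.25 ± 0.19 SE, adjusted p = 1.03e-05). Cdx2, the factor that specifies intestinal epithelium along its whole length, did not pass the test (log2 difference -0.23 ± 0.18 SE, adjusted p = 0.357). Of 27 factors tested, 6 were called higher in the ileum and 7 in the duodenum, beside 12.1% and 15.1% of all genes tested. Without the 2 libraries these were 6 and 8.

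Hox cluster genes, which encode position along the body axis, were at low levels and were called more often towards the ileum. Of 39 listed, 15 were too low to test. Of the 24 tested, 11 were called higher in the ileum and 4 in the duodenum, beside 12.1% and 15.1% of all genes tested. Without the 2 libraries these were 11 and 3. Log2 differences of the 24 ran from -7.10 to 6.10, and the genes named next are among the 11. Hoxc8 was at 1.09, 1.82 and 4.20 CPM in the ileum, against 0.178, 0.0492 and 0.243 in the duodenum (log2 difference 3.94 ± 0.73 SE, adjusted p = 0.000203). Hoxb8 was at 0.826, 1.52 and 1.59 CPM in the ileum against 0.0761, 0.0246 and 0.0910 in the duodenum (log2 difference 4.32 ± 0.89 SE, adjusted p = 0.000658). For Hoxd8 the levels were 0.563, 0.985 and 1.73 CPM in the ileum against 0.254, 0.0983 and 0.0303 in the duodenum (log2 difference 3.05 ± 0.50 SE, adjusted p = 3.44e-05). Ileum number 3 was the highest library for all 3. Whole tissue includes muscle, nerve and connective tissue, whose markers also differed between the regions, as given further on, and the part of these cells in the Hox levels was not tested. In bulk tissue, more cells of a type and more RNA per cell cannot be told apart.

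Of 30 crypt and cell cycle genes, 29 passed towards the duodenum and 0 towards the ileum, beside 15.1% and 12.1% of all genes tested. The median log2 difference of the list was -1.16. Olfm4, a marker of crypt base stem cells, was at 1966, 2594 and 1167 CPM in the duodenum, against 445, 442 and 348 in the ileum (log2 difference -2.21 ± 0.26 SE, adjusted p = 2.18e-07). Levels of the stem cell receptor Lgr5 were 48.2, 64.0 and 27.9 CPM in the duodenum against 24.4, 18.3 and 22.2 in the ileum (log2 difference -1.11 ± 0.26 SE, adjusted p = 0.00206). The stem cell factor Ascl2 was at 5.48, 10.2 and 14.5 CPM in the duodenum against 1.69, 5.42 and 2.97 in the ileum (log2 difference -1.58 ± 0.34 SE, adjusted p = 0.000985). Duodenum number 3 was the lowest of its region for Olfm4 and Lgr5 and the highest for Ascl2. The replication clamp Pcna was higher in the duodenum (log2 difference -1.06 ± 0.22 SE, adjusted p = 0.000644). For the proliferation antigen Mki67, duodenum number 2 stood out at 448, 825 and 228 CPM against 164, 178 and 309 in the ileum (log2 difference -1.21 ± 0.30 SE, adjusted p = 0.00374). Its call was lost when that library was left out (adjusted p 0.122 without duodenum number 2, from 0.000181 to 0.272 over 14 alternatives). In 13 of the 30 genes the libraries of the 2 regions did not overlap, beside 21.6% of all genes tested. Without duodenum number 3 and ileum number 2 all 30 were called higher in the duodenum, whereas the 6 day 4 libraries alone gave 1 call. The summed level of 12 enterocyte markers overlapped, with 9865 to 12459.8 CPM in the duodenum against 8944 to 11806 in the ileum.

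The enzymes of fatty acid oxidation were higher in the duodenum. Cyp4a10, a fatty acid hydroxylase controlled by the receptor PPAR alpha, was at 50.4, 47.1 and 44.3 CPM in the duodenum, against 0.376, 5.001 and 1.45 in the ileum (log2 difference -4.40 ± 0.64 SE, adjusted p = 1.03e-05). Acat1, a mitochondrial thiolase, was at 489, 365 and 342 CPM in the duodenum against 172, 177 and 126 in the ileum (log2 difference -1.33 ± 0.21 SE, adjusted p = 2.26e-05). Hadha and Hadhb, the subunits of the trifunctional protein of beta oxidation, differed by -0.77 ± 0.15 and -0.99 ± 0.17 (SE; adjusted p 0.000431 and 0.0001). Across the list 18 of 26 genes were called higher in the duodenum, beside 15.1% of all genes tested. The ileum was higher for 1, the pantetheinase Vnn1 (log2 difference 1.14 ± 0.25 SE, adjusted p = 0.00128), named after its values were seen. These were 20 and 1 without the 2 libraries, and 1 gene in all from the 6 day 4 libraries alone. The share of mitochondrial transcripts was higher in the duodenum libraries too, and its part in these differences was not tested.

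Most genes of fat absorption did not pass the test. Of 32 genes of lipid uptake and chylomicron assembly, 2 were called towards the ileum and 4 towards the duodenum (18.8% in all). The share of all genes tested was 27.2%, and the median log2 difference of the list was -0.12. Apoa4, the lipoprotein component that was most abundant here, was at 19300.3, 9633 and 13279 CPM in the duodenum, against 14601, 13244 and 8468 in the ileum (log2 difference -0.22 ± 0.38 SE, adjusted p = 0.713). Mttp, which loads lipid onto the nascent chylomicron, did not pass either (log2 difference -0.14 ± 0.25 SE, adjusted p = 0.733). The fatty acid carriers Fabp1 (1913, 1922 and 1397 CPM in the duodenum against 769, 1072 and 728 in the ileum; log2 difference -1.03 ± 0.49 SE, adjusted p = 0.116) and Fabp2 (log2 difference -0.59 ± 0.24 SE, adjusted p = 0.0665) had all duodenum libraries above all ileum libraries without passing the test. The fatty acid activating enzyme Slc27a2 was called, at 138, 102 and 103 CPM in the duodenum, against 19.6, 46.6 and 34.3 in the ileum (log2 difference -1.77 ± 0.41 SE, adjusted p = 0.0019). In the cholesterol list 5 of 23 genes (21.7%) were called, all higher in the ileum, beside 12.1% of all genes tested in that direction. One of them was the synthesis enzyme Msmo1, at 80.3, 59.3 and 68.9 CPM in the ileum, against 30.6, 31.5 and 37.2 in the duodenum (log2 difference 1.07 ± 0.24 SE, adjusted p = 0.0014).

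Brush border peptidases and amino acid transporters leaned to the ileum, with 12 of 25 genes called higher there and 2 in the duodenum. Of all genes tested, 12.1% and 15.1% were called in these directions. Enpep, which encodes the glutamyl aminopeptidase, was at 927, 681 and 748 CPM in the ileum, against 122, 81.9 and 71.0 in the duodenum (log2 difference 3.10 ± 0.28 SE, adjusted p = 2e-09). Naaladl1, a peptidase of the brush border, was at 1314, 840.3 and 872 CPM in the ileum against 98.4, 35.8 and 85.9 in the duodenum (log2 difference 3.78 ± 0.48 SE, adjusted p = 1.05e-06). The amino acid transporter Slc6a14 was close to absent in the duodenum at 0.127, 0.0492 and 0.0303 CPM and reached 8.49, 4.09 and 11.5 in the ileum (log2 difference 6.76 ± 1.00 SE, adjusted p = 1.56e-05). All 3 genes separated the regions without overlap. The 2 genes higher in the duodenum were the glutathione hydrolase Ggt1 (log2 difference -1.61 ± 0.31 SE, adjusted p = 0.000333) and neprilysin, Mme. Levels of Mme were 625, 521 and 213 CPM in the duodenum, against 37.6, 48.3 and 30.8 in the ileum (log2 difference -3.54 ± 0.73 SE, adjusted p = 0.000864), and the gene was named after they were seen. The oligopeptide transporter Slc15a1 did not pass the test (log2 difference 0.15 ± 0.32 SE, adjusted p = 0.777).

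Of 22 carbohydrate genes 2 passed towards the ileum and 5 towards the duodenum, and the share called, 31.8%, was close to the 27.2% of all genes tested. Lct, the lactase that splits milk sugar, was at 1888, 1042 and 1325 CPM in the duodenum, against 1625, 1532 and 936 in the ileum and did not pass (log2 difference -0.06 ± 0.46 SE, adjusted p = 0.947). Slc5a1, the glucose and galactose transporter of the brush border, did not pass either (log2 difference 0.10 ± 0.28 SE, adjusted p = 0.826). The trehalase Treh was higher in the duodenum at 8.93, 9.93 and 13.5 against 2.18, 2.24 and 0.957 CPM (log2 difference -2.63 ± 0.44 SE, adjusted p = 5.45e-05). Fructose genes went the same way, with the transporter Slc2a5 at 31.2, 27.6 and 36.4 against 9.58, 14.2 and 8.96 CPM (log2 difference -1.54 ± 0.39 SE, adjusted p = 0.00391). Ketohexokinase, Khk, was called in the same direction (log2 difference -1.14 ± 0.27 SE, adjusted p = 0.0022). Mgam, the maltase-glucoamylase, was higher in the ileum (log2 difference 1.32 ± 0.27 SE, adjusted p = 0.000619).

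Arginine synthesis, mineral and ion genes were called at both ends. Asl, the last enzyme of arginine synthesis, was at 128, 93.5 and 75.1 CPM in the ileum, against 42.1, 32.5 and 58.2 in the duodenum (log2 difference 1.16 ± 0.20 SE, adjusted p = 8.06e-05). The proline oxidase Prodh was at 39.7, 46.3 and 42.2 CPM in the ileum against 12.7, 12.9 and 18.9 in the duodenum (log2 difference 1.53 ± 0.18 SE, adjusted p = 2.46e-07). Of 14 genes in that list 3 were higher in the ileum and 2 in the duodenum (35.7% called, beside 27.2% of all genes tested). Among mineral and vitamin genes 4 of 27 were higher in the ileum and 6 in the duodenum (37% called, beside the same 27.2%). The calcium channel Trpv6 was at 2.54, 3.05 and 3.03 CPM in the duodenum, against 0.150, 0.265 and 0.183 in the ileum (log2 difference -3.84 ± 0.94 SE, adjusted p = 0.00333). Hmox1, the heme oxygenase that frees iron from heme, was at 55.4, 31.3 and 17.3 CPM in the ileum, against 6.65, 6.02 and 10.1 in the duodenum (log2 difference 2.19 ± 0.35 SE, adjusted p = 3.73e-05). The iron reductase Cybrd1 (log2 difference -0.90 ± 0.41 SE, adjusted p = 0.104), the iron importer Slc11a2 (log2 difference 0.43 ± 0.35 SE, adjusted p = 0.383) and the exporter Slc40a1 (log2 difference 0.64 ± 0.46 SE, adjusted p = 0.321), whose proteins serve iron uptake in the duodenum of older animals, did not pass.

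Of 28 ion and fluid transport genes, 9 passed towards the ileum and 7 towards the duodenum, beside 12.1% and 15.1% of all genes tested. Guca2a, which encodes the secreted peptide guanylin, was at 291, 249 and 228 CPM in the ileum, against 16.5, 20.7 and 37.4 in the duodenum (log2 difference 3.36 ± 0.31 SE, adjusted p = 3.84e-09). Slc5a8, a sodium-coupled carrier of monocarboxylates, was at 44.6, 15.5 and 30.5 CPM in the ileum against 1.83, 0.860 and 0.697 in the duodenum (log2 difference 4.72 ± 0.87 SE, adjusted p = 0.00028). In the other direction, the water channel Aqp8 was at 52.5, 30.7 and 39.6 CPM in the duodenum, against 3.94, 8.64 and 5.40 in the ileum (log2 difference -2.77 ± 0.42 SE, adjusted p = 1.56e-05). Cftr, the chloride channel of crypt secretion, was at 175, 298 and 92.0 CPM in the duodenum against 86.9, 91.0 and 115 in the ileum, with overlap (log2 difference -0.95 ± 0.25 SE, adjusted p = 0.00573). Without 1 library the call was lost (adjusted p 0.189 without duodenum number 2, from 0.000133 to 0.307 over 14 alternatives). Xenobiotic and retinol enzymes were called in 17 of 36 cases, 6 higher in the ileum and 11 in the duodenum. Of all genes tested, 12.1% and 15.1% were called in these directions. The cytochrome Cyp2d26 was at 100.03, 72.9 and 107 CPM in the duodenum, against 8.19, 21.8 and 11.7 in the ileum (log2 difference -2.75 ± 0.47 SE, adjusted p = 0.000105). The efflux pump Abcb1a was higher in the ileum (log2 difference 1.47 ± 0.25 SE, adjusted p = 6.76e-05). Genes with near-identical copies, such as those of the Cyp4a, Cyp2c, Ces2, Ugt2b, Clca4 and Reg families, depend on how reads were divided between copies and are uncertain one by one.

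For the lists not yet given without duodenum number 3 and ileum number 2, the calls towards the ileum and towards the duodenum were then 11 and 2 for peptidases and amino acid transport, 2 and 4 for fat absorption, and 6 and 0 for cholesterol. They were 1 and 5 for carbohydrate genes, 3 and 2 for arginine synthesis, 4 and 6 for minerals and vitamins, 9 and 8 for ion transport, and 5 and 9 for xenobiotic enzymes. For innate sensing they were 3 and 5, and for the Reg lectins 0 and 1. Of all genes tested, 11.6% and 15.3% were then called in these directions.

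**Figure D4:**
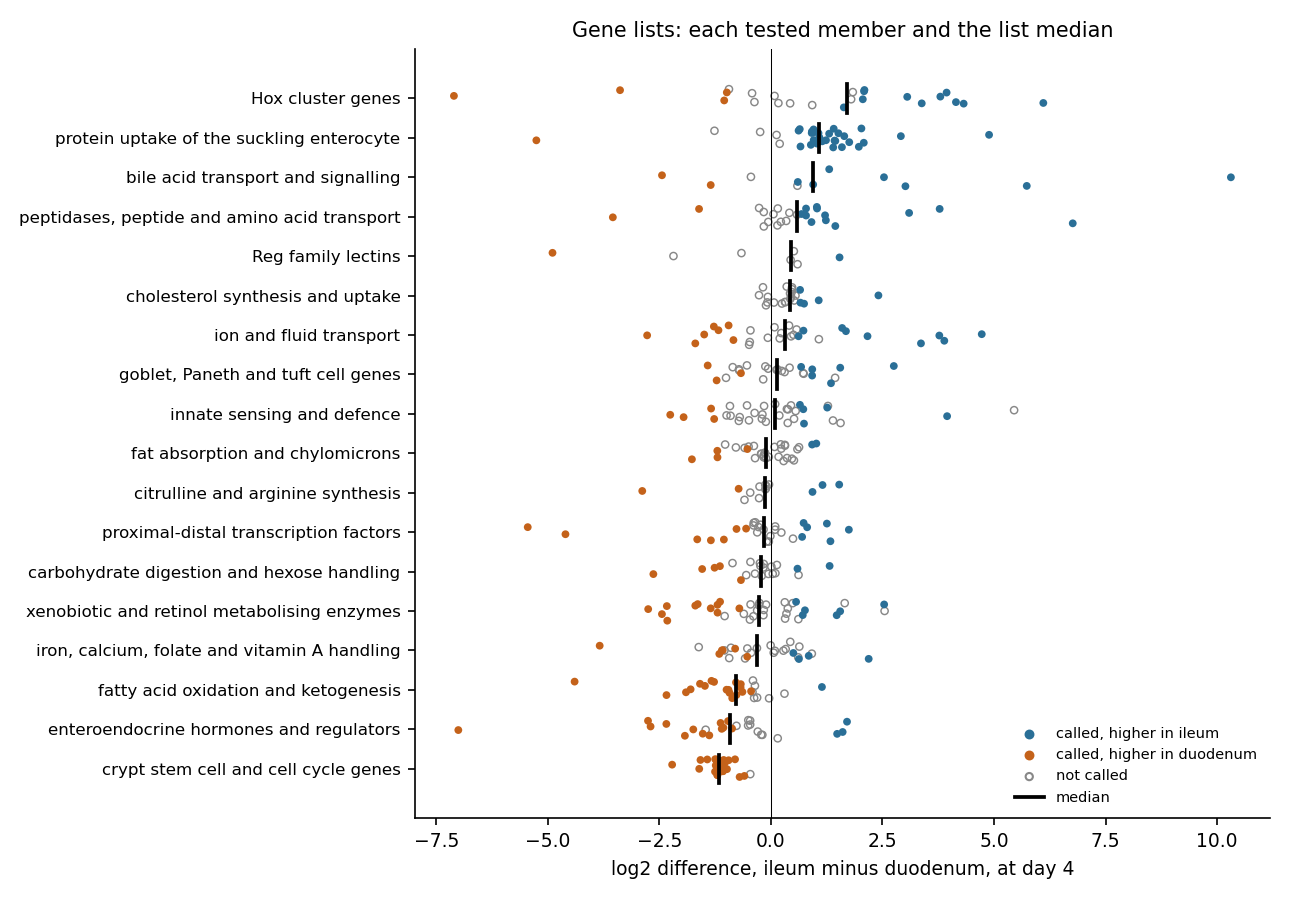
Log2 difference, ileum minus duodenum, at day 4 (horizontal axis) of every tested member of 18 gene lists (one line each, in the order of their medians); filled points passed an adjusted p of 0.05, open points did not, and black bars are medians. The medians run from -1.16 for crypt and cell cycle genes to 1.72 for Hox genes, whose members spread widely at low levels.

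Gut hormones differed in both directions, with hormones known from the proximal bowel higher in the duodenum and those known from the distal bowel higher in the ileum. Cck, the hormone of gallbladder contraction, was at 30.6, 35.6 and 71.6 CPM in the duodenum, against 4.92, 9.85 and 6.48 in the ileum (log2 difference -2.70 ± 0.36 SE, adjusted p = 2.38e-06). The incretin Gip was at 65.8, 64.5 and 90.4 CPM in the duodenum against 12.3, 36.5 and 17.4 in the ileum (log2 difference -1.74 ± 0.44 SE, adjusted p = 0.00388). Ghrelin, Ghrl, was at 19.8, 22.7 and 57.8 CPM in the duodenum against 3.08, 7.20 and 4.58 in the ileum (log2 difference -2.75 ± 0.36 SE, adjusted p = 1.11e-06). The duodenum libraries were all above the ileum libraries for these 3. Among distal hormones, Pyy was at 10.9, 19.2 and 17.6 CPM against 4.21, 3.44 and 7.003 in the duodenum (log2 difference 1.71 ± 0.38 SE, adjusted p = 0.00141). Nts, which encodes neurotensin, was at 148, 208 and 179.9 against 52.3, 35.9 and 87.7 (log2 difference 1.61 ± 0.40 SE, adjusted p = 0.00329). Gcg, the gene of the glucagon-like peptides, was at 24.2, 61.0 and 42.2 against 11.02, 12.3 and 22.3 (log2 difference 1.48 ± 0.28 SE, adjusted p = 0.000206). These were the only 3 of 26 genes tested in the list that were called higher in the ileum, beside 12.1% of all genes tested. Towards the duodenum 13 were called, beside 15.1% of all genes tested. Among those was Neurog3, the factor that starts endocrine differentiation (log2 difference -2.34 ± 0.39 SE, adjusted p = 5.24e-05). Secretin, Sct, did not pass (log2 difference 0.15 ± 0.31 SE, adjusted p = 0.758). Without the 2 libraries 3 and 11 were called.

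Several goblet cell products were higher in the ileum. Muc2, the main gel-forming mucin, was at 1013, 1353 and 1027 CPM in the ileum, against 142, 176 and 185 in the duodenum (log2 difference 2.75 ± 0.31 SE, adjusted p = 1.1e-07). Fcgbp, which binds to the mucus gel, was at 2206, 3589.9 and 2431 CPM in the ileum against 862, 913 and 1461 in the duodenum (log2 difference 1.35 ± 0.26 SE, adjusted p = 0.00028). Both separated the regions, and ileum number 2 was the highest library. Of 25 genes of goblet, Paneth and tuft cells, 6 were called higher in the ileum and 3 in the duodenum. This was 36% in all, beside 27.2% of all genes tested, and the median log2 difference was 0.14. Among the 3 was Sox9, with overlap (log2 difference -0.67 ± 0.21 SE, adjusted p = 0.0149). The call of Sox9 was lost without some libraries (adjusted p 0.152 without duodenum number 2, 0.105 without ileum number 1 and 0.0732 without ileum number 3, from 0.00127 to 0.33 over 14 alternatives). Calls for some goblet genes were lost when libraries were left out. For Tff3 the adjusted p was 0.0658 without duodenum number 1 and 0.0784 without ileum number 2, from 0.00106 to 0.181 over 14 alternatives. For Clca1 it was 0.0652 without duodenum number 1, 0.0862 without ileum number 2 and 0.0769 without duodenum number 3 and ileum number 2, from 0.0043 to 0.154 over 14 alternatives, and for Agr2 0.102 without duodenum number 1, 0.106 without ileum number 2 and 0.0636 without duodenum number 3 and ileum number 2, from 0.0052 to 0.24 over 14 alternatives. Without duodenum number 3 and ileum number 2 the counts were 4 and 3, beside 11.6% and 15.3% of all genes tested.

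Defence genes were called in 27.3% of cases, beside 27.2% of all genes tested: 5 of 33 genes of innate sensing passed towards the ileum and 4 towards the duodenum. Pigr, the receptor that carries IgA into the lumen, was at 747, 1422 and 808 CPM in the duodenum, against 130.1, 329 and 164 in the ileum (log2 difference -2.26 ± 0.36 SE, adjusted p = 3.09e-05). The cytokine Il18 was higher in the ileum (log2 difference 1.26 ± 0.26 SE, adjusted p = 0.000609). Tollip, an inhibitor of Toll-like receptor signalling, was higher there as well (log2 difference 0.73 ± 0.18 SE, adjusted p = 0.00299). Tlr4, the receptor for bacterial lipopolysaccharide, was low in both regions, at 0.558, 0.959 and 0.212 CPM in the duodenum, against 0.901, 0.493 and 0.835 in the ileum (log2 difference 0.36 ± 0.50 SE, adjusted p = 0.635). Tlr5, the receptor for flagellin, did not pass either (log2 difference 0.45 ± 0.25 SE, adjusted p = 0.175). Among the Reg lectins, Reg1, which the pancreas also makes, was higher in the duodenum at 14.4, 53.5 and 38.7 against 3.04, 0.417 and 0.346 CPM (log2 difference -4.90 ± 1.33 SE, adjusted p = 0.00742). Reg3b was called higher in the ileum (log2 difference 1.54 ± 0.57 SE, adjusted p = 0.044). It lost that call in several comparisons with libraries left out (adjusted p 0.163 without duodenum number 1, 0.109 without duodenum number 3, 0.0538 without ileum number 1, 0.241 without ileum number 3 and 0.0946 without duodenum number 3 and ileum number 2, from 0.0153 to 0.248 over 14 alternatives). Reg3g did not pass (log2 difference 0.51 ± 0.49 SE, adjusted p = 0.464).

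The genes with the largest differences among well expressed genes without overlap included several outside the lists. Scd2, a fatty acid desaturase, was at 261, 253 and 296 CPM in the ileum, against 7.64, 6.51 and 3.61 in the duodenum (log2 difference 5.51 ± 0.48 SE, adjusted p = 1.39e-09). The tight junction gene Cldn8 was at 112, 58.0 and 88.0 CPM in the ileum against 3.30, 1.62 and 0.879 in the duodenum (log2 difference 5.46 ± 0.46 SE, adjusted p = 1.39e-09). Slc38a3, a glutamine transporter, was at 35.1, 15.5 and 18.0 CPM in the ileum against 1.27, 0.295 and 1.03 in the duodenum (log2 difference 4.73 ± 0.51 SE, adjusted p = 7.65e-08). Bcl2l15, of the Bcl2 family, was at 27.0, 49.0 and 47.3 CPM in the ileum against 0.431, 1.79 and 2.06 in the duodenum (log2 difference 4.85 ± 0.49 SE, adjusted p = 2.51e-08). Greb1l rested on 1 library, with 3.53, 0.985 and 60.2 CPM in the ileum, against 0.838, 0.590 and 0.728 in the duodenum (log2 difference 4.91 ± 1.20 SE, adjusted p = 0.00363). Without that library the call was lost (adjusted p 0.268 without ileum number 3, from 2.46e-05 to 0.268 over 14 alternatives). At the duodenal end stood Cym, the gene of chymosin, a milk-clotting protease, at 516, 319 and 507 CPM in the duodenum, against 9.99, 10.9 and 2.69 in the ileum (log2 difference -5.85 ± 1.08 SE, adjusted p = 0.000308). 2210407C18Rik was at 99.9, 123 and 104 CPM in the duodenum against 6.20, 7.58 and 4.77 in the ileum (log2 difference -4.14 ± 0.66 SE, adjusted p = 4.29e-05). Fam198a was at 13.0, 11.5 and 10.03 CPM in the duodenum against 0.639, 0.644 and 0.265 in the ileum (log2 difference -4.52 ± 0.49 SE, adjusted p = 7.65e-08). The complement component C8b was at 16.98, 7.35 and 5.21 CPM in the duodenum against 0.714, 0.530 and 0.265 in the ileum (log2 difference -4.35 ± 0.46 SE, adjusted p = 3.47e-08).

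Markers of other tissues also moved with the region. Their counts stand beside 12.1% of all genes tested called higher in the ileum and 15.1% in the duodenum. Without duodenum number 3 and ileum number 2 these shares were 11.6% and 15.3%. Fibroblast and matrix genes summed to 242 to 774 CPM in the ileum and 83.0 to 268 in the duodenum, with overlap. Of these, 15 of 18 were called higher in the ileum, among them Col3a1 (log2 difference 3.35 ± 0.73 SE, adjusted p = 0.00133). Smooth muscle markers summed to 378 to 452 against 215 to 357 CPM (5 of 14 called higher in the ileum) and enteric neuron and glia markers to 86.5 to 104 against 35.4 to 66.8 (7 of 16, with S100b alone higher in the duodenum), neither overlapping. Leukocyte markers overlapped, and 1 of 24 was called. Endothelial markers were called in 3 of 11 cases, all higher in the ileum (27.3%, beside 12.1% of all genes tested in that direction). Log2 differences of the 11 ran from 0.38 to 1.92, and their sums overlapped between the regions. Of mesothelial and fat markers 5 of 9 were called, all higher in the ileum, while the sums of that list overlapped (96.7 to 142 CPM in the ileum against 67.1 to 136 in the duodenum). Pancreatic acinar markers, which can come with the neighbouring pancreas, summed to 83.7 to 212 CPM in the duodenum against 25.2 to 47.2 in the ileum, and 10 of 15 were called higher in the duodenum. In the ileum 7 of the 16 listed were at 0, and the carboxypeptidase Cpa1 was at 0 in all 3 libraries, with 1.85, 8.55 and 4.31 CPM in the duodenum. Markers of stomach and Brunner glands summed to 324 CPM in duodenum number 2 and to 26.3 and 21.9 in the others, against 7.77 to 17.7 in the ileum; the mucin Muc6 was at 19.1, 221 and 11.6 CPM in the duodenum. Red blood cell markers reached 4315 CPM in duodenum number 3 and 89.3 to 1009 in the other libraries of both regions. Without duodenum number 3 and ileum number 2 the calls towards the ileum were 16 for fibroblast and matrix, 8 for smooth muscle, 10 for neuron and glia, 2 for endothelium and 5 for mesothelium and fat, and those of acinar markers towards the duodenum were 8. From the 6 day 4 libraries alone edgeR called 0 fibroblast and matrix, 0 smooth muscle and 0 endothelial markers, with 14, 4 and 3 at an unadjusted p under 0.05. It then called 2 markers of neuron and glia, 1 of mesothelium and fat and 7 of acinar cells. How far these cells account for the regional differences above was not tested.

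The regional difference at day 4 was set beside that at the neighbouring ages with labels in no doubt, days 2 and 8, each again 3 against 3 libraries. At day 2, 1705 of the genes (8.2%) were called, and at day 8 8454 (40.7%). Of the day 4 calls 1268 were called at day 2, which is 22.4% of the day 4 list and 74.4% of the day 2 list, and 1261 of these had the same direction. With day 8 the day 4 list shared 4472 calls, or 79.1% of its own and 52.9% of the day 8 list, 4449 in the same direction. Across the 12233 genes whose log2 CPM averaged at least 1, the log2 differences at day 4 correlated with those at day 2 (Pearson r = 0.68) and at day 8 (r = 0.84). These values are across genes, which are not independent replicates, and are given as a description.

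For single genes the values at the 3 ages were set side by side. Fabp6 differed by 10.31 at day 4, 7.62 at day 2 and 9.06 at day 8. Onecut2 gave -4.60, -3.88 and -4.36, and Enpep 3.10, 2.75 and 2.99. Fcgbp gave 1.35, -0.31 and 0.84, and Clca4a 3.77, 0.06 and 4.72. A direct test of the day 4 difference against the mean of those at days 2 and 8 called 0 genes in edgeR (0% of 20788), with 1334 at an unadjusted p under 0.05 and 13 called by DESeq2. The 6 expressed genes with the smallest p had an adjusted p of 0.45 and included Mmp12, a macrophage metalloelastase (2.11 ± 0.48 SE, adjusted p = 0.453), and Naa15, a subunit of an acetyltransferase that modifies protein ends (-0.93 ± 0.22 SE, adjusted p = 0.453). Leaving out duodenum number 2 raised the count to 92.

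**Figure D5:**
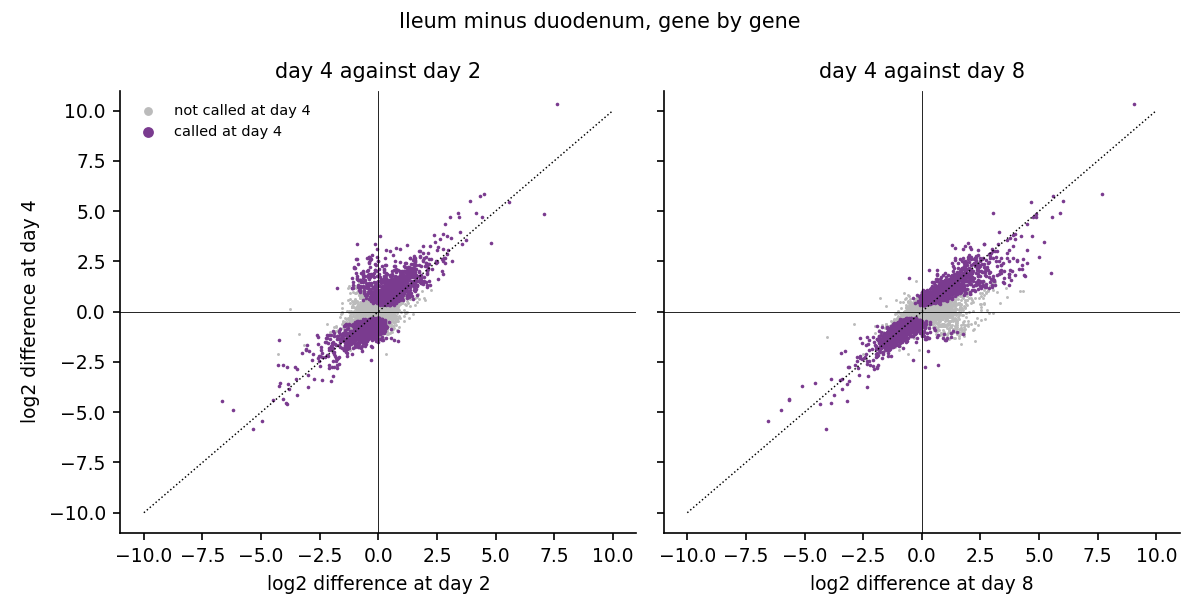
Log2 difference, ileum minus duodenum, of 12233 expressed genes at day 4 (vertical axis) against day 2 (left) and day 8 (right); purple points were called at day 4 and the dotted line marks equal values. Across genes r was 0.68 with day 2 and 0.84 with day 8, and Fabp6 lies at the upper end of both panels.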

How the data were processed

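Total RNA of whole-thickness bowel was sequenced on an Illumina NovaSeq, per the labels. The authors deposited estimated counts per gene, one column a sample, for all 48 samples. The submitters' processing notes name STAR 2.6.1d, Salmon 0.14.2, DESeq2 1.30.1 and the build mm10, without saying which step each served. Estimated counts share out reads that match several transcripts. The deposited tables of normalized values hold no day 4 column and were not used here. Gene symbols were matched to 54409 of 54532 identifiers (GENCODE M21, GRCm38).

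The counts, rounded to whole numbers, were tested in edgeR 4.0.16 (R 4.3.3) with TMM scaling, the filterByExpr filter, a robust quasi-likelihood fit and one mean per group. The fit held 42 samples in 14 groups; the 2 day 6 groups were left out because earlier results of these data put the labels of the day 6 samples numbered 3 in doubt. Ileum minus duodenum at day 4 was one contrast, and that difference minus its mean at days 2 and 8 the other. P-values were adjusted by Benjamini-Hochberg over all genes tested, at a threshold of 0.05. Standard errors are the log2 difference over the square root of F. The procedure was tested on simulated data with 200 genes changed. It recovered 33% of 2-fold and 78% of 4-fold changes, and 3.5% of its calls were false. The simulation drew each library independently, without the shared deviations of duodenum number 3 and ileum number 2, and changed far fewer genes than were called here. These rates may therefore not hold for the day 4 comparison. A gene that did not pass is not shown to be equal in both regions. The labels give equal sample numbers to both regions without saying that they pair, and at day 4 only 1 of the 3 equal-numbered pairs deviated together. The main fit held no block, and a replicate block was an alternative.

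Named genes were up to 6 called genes of smallest adjusted p in each list plus known regional anchors, the 10 largest differences in each direction without overlap whose log2 CPM averaged at least 1, the 6 of smallest p in the contrast with days 2 and 8, and defining markers. Some genes that this rule names are counted in their lists but not reported here. The comparison, members and lists were chosen with earlier results of these data known. Alternatives were RLE size factors, no filter, a mean count of at least 10, DESeq2 1.42.0, all 48 samples, only the groups compared, a replicate block, each library left out, and duodenum number 3 and ileum number 2 left out together. The last was also run with only the day 4 groups, which was chosen after seeing the data.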

Additional observations from a re-analysis of the deposited data

How the results depend on the processing

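The count of genes called at day 4 was 5651, and it was 5610 with RLE size factors, 4488 without the filter, 5585 at a mean count of at least 10, 6147 in DESeq2 and 3851 with all 48 samples. It was 354 with only the groups of the contrast, and 216 with only the day 4 groups and without duodenum number 3 and ileum number 2. Leaving out 1 library at a time gave 3031 to 7052, the lowest without ileum number 1. For the contrast with days 2 and 8 the count was 0, 13 in DESeq2, and 0 to 92 with 1 library left out, the highest without duodenum number 2. Of the 153 named genes 132 were called, 57 with only the groups of the contrast, and 119 to 126 with 1 library left out. Of the 132, 0 changed direction under the 14 alternatives run on all named genes; of the 21 not called, 12 did in at least 1 of them, among them Sis, Lct and Cdx2. The replicate block gave 5452 calls, 5051 of them shared. Deviations of equal numbers correlated at 0.67, -0.26 and -0.36, and only number 1 correlated best with its own number. These values cannot decide whether the numbers pair the day 4 samples, since duodenum number 3 and ileum number 2 deviated together (0.73). The labels state no pairing, and none was taken. At days 0 and 2 and at weeks 2 and 3 all 3 pairs of equal numbers correlated over 0.1. The cause of these differences was not tested. With 3 libraries a region, low genes such as the Hox genes are imprecise, and intervals cover no variation beyond these samples.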

Other observations

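Of 10 liver markers 8 were tested. Called higher in the ileum were 5 and in the duodenum 1, beside 12.1% and 15.1% of all genes tested. The fibrinogen chain genes Fga, at 29.2, 17.5 and 20.5 CPM in the ileum, against 1.02, 0.0737 and 0.0303 in the duodenum (log2 difference 5.85 ± 0.54 SE, adjusted p = 7.91e-09), and Fgb, at 17.5, 12.2 and 15.1 CPM in the ileum against 0.381, 0 and 0.0606 in the duodenum (log2 difference 6.61 ± 0.63 SE, adjusted p = 1.69e-08), separated the regions without overlap. Ttr, which encodes the thyroxine carrier transthyretin, was at 159, 145 and 109 CPM in the ileum against 72.3, 44.3 and 61.0 in the duodenum (log2 difference 1.22 ± 0.31 SE, adjusted p = 0.00411). Albumin, the most abundant product of the liver, stayed below 1 CPM in all 6 libraries, with Alb at 0.601, 0.0379 and 0.326 CPM in the ileum, against 0.305, 0.246 and 0.152 in the duodenum (log2 difference 0.45 ± 0.73 SE, adjusted p = 0.694). At days 2 and 8 the log2 difference of Fga was 4.50 and 7.70.

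Libraries number 2 and 3 of both regions held no Ddx3y count, while both number 1 libraries held Ddx3y at 61.3 CPM (duodenum) and 58.0 CPM (ileum). Xist, a long transcript, was at 321 CPM in duodenum number 3 and 380 in ileum number 2, the libraries lower in long transcripts. It was at 931 and 1675 in the other number 2 and 3 libraries and at 1.55 and 7.81 in the number 1 libraries. In each region number 1 thus came from other animals than numbers 2 and 3. The deviations of duodenum number 3 and ileum number 2 from their groups correlated across genes at r = 0.73, which is a description. Nos2, the inducible nitric oxide synthase, was at 0.601, 2.05 and 1.59 CPM in the ileum, against 0.127, 0.0246 and 0.121 in the duodenum (log2 difference 3.95 ± 1.23 SE, adjusted p = 0.0175; 3.89, adjusted p = 0.0873 without the 2 libraries that stood apart, from 0.000381 to 0.0873 over 14 alternatives), and was named after its values were seen.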
